A study of Mus musculus with 24 samples.

Results

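The cytosolic ribosome is built from ribosomal RNA and a set of ribosomal proteins, and the genes for these proteins were followed here through whole kidneys of mice with and without polycystic disease. Gene symbols were matched to the pattern of ribosomal protein names (Rpl or Rps and a number, with a short suffix allowed) or to Rpsa, Rplp0, Rplp1 and Rplp2. Among the 54532 genes counted, 89 matched, and the 79 with a mean of at least 10 counts per 1000000 (CPM) over the 24 libraries were kept, 47 of the large and 32 of the small subunit. The symbols say which subunit each gene belongs to. The rule uses no difference between groups, but this gene family was chosen with earlier results of these data known.

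RNA-seq was performed on whole kidneys of 24 C57BL/6 mice aged 18 days, each mouse giving 1 library. All of them, controls included, had 1 copy of Pkd1, which encodes polycystin-1, with the missense change called RC. In the control groups the other allele was floxed but intact and no Cre was present: RC/+ (3 mice), RC/+ D18 (3 mice) and RC/+ D53 (3 mice). In the cystic groups Ksp-Cre, which acts in kidney tubule cells, had inactivated the floxed allele: RC/- (5 mice), RC/- D18 (5 mice) and RC/- D53 (5 mice). Cre was thus present only with the cystic genotype, and its own effect cannot be told apart from that of Pkd1 loss. D18 and D53 mark 2 lines in which the miR-17 binding motif was removed from the 3′ UTR of that RC copy. Each edited line came from 1 founder, so an effect of the edit and one of the founder cannot be told apart either.

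Each ribosome joins a large and a small subunit, and one copy of nearly every ribosomal protein is needed for each particle. The mRNAs for these proteins are among the most abundant of any cell, and most start with a cytosine followed by a run of pyrimidines (the terminal oligopyrimidine tract), through which mTORC1 signalling controls their translation. mTORC1 activity and cell growth are long-standing themes of polycystic kidney disease. RNA-seq of this kind measures the mRNAs and not their translation.

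Pyrimidine runs were read in the genomic sequence around the annotated starts, at any position within 50 bases. They need not be the tract that starts the mRNA. Relative to the RefSeq start, the run printed below began at position -50 for Rpsa, -32 for Rpl7l1, 37 for Rpl39 and 41 for Rpl41 and Rps2. Of the 79 genes 58 had an entry in the RefSeq promoter table (GRCm38.p6), and a gene counted when any of its promoters matched. In 49 of the 58 (84.5%) a run of at least 8 C or T letters lay on the transcribed strand within 50 bases of the RefSeq start. The same held for 39.3% of all 27025 genes of that table. The median longest run was 10.5 bases in the ribosomal protein genes and 7 bases in all genes of the table. The sequences below, 5′ to 3′ on the transcribed strand with the longest run inside that window in capitals, belong to genes with the largest differences between groups (Rpl39, Rps12, Rpl12, Rpl35, Rpl41, Rpsa), to Rps6, the S6 kinase substrate, to Rpl11, and to the 3 genes that did not pass the test in cystic against control kidneys (Rps2, Rps27l, Rpl7l1).
Rpl39 (chrX:37085173-37085192, minus strand): tcccggCCTTTCTCTTCTCC
Rps12 (chr10:23787182-23787207, minus strand): cgccggCCTTTTCCCCTgccgccgcc
Rpl12 (chr2:32961745-32961761, plus strand): gtgcaaCTTTCTTCggt
Rpl35 (chr2:39005119-39005144, minus strand): gccccgCCCTTTCCTCTTTCTCTCga
Rpl41 (chr10:128549119-128549134, minus strand): agtaggCCTCCCTCTC
Rpsa (chr9:120127710-120127735, plus strand): gttctcCCTTTTTgcttagcctgctt
Rps6 (chr4:86857349-86857374, minus strand): gtcgggCCTCTTTTTCgtgacgcctc
Rpl11 (chr4:136053361-136053386, minus strand): cggaagTCTCCCTCTCTCTTCCTgtt
Rps2 (chr17:24720097-24720112, plus strand): gcggcgCCTCCCTCTT
Rps27l (chr9:66946058-66946083, plus strand): cctccaCTCCTCTCCactcctccccg
Rpl7l1 (chr17:46782669-46782694, minus strand): ggcgggCCTCTCTaccccgcccggtg

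The longest run was 18 bases in Rpl35, 17 in Rpl11 and 14 in Rpl39, and 7 bases in Rpl7l1. Runs were cut at the window's edges in every promoter: that of Rpsa goes on in the lower-case letters before its capitals, and those of Rpl39, Rpl41 and Rps2 end at the last base of the window, so that their lengths are minimum values. Other letters were searched on both strands of the promoter window, from 250 bases before to 50 bases after the start. CCGGAAG, a core of the site known for ETS factors, was present in 41.4% of the 58 genes and in 9.93% of all genes of the promoter table. AAGATGG, a core of the YY1 site, was present in 17.2% and 7.28%, and CACGTG, the E-box bound by Myc, in 10.3% and 8.09%. The first pair of motifs can overlap by their AAG letters. These matches describe the letters in the window and were not tested for binding.

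The ribosomal protein genes ranged widely in level. Rplp0, a protein of the stalk that recruits translation factors, had the highest mean at 1095 CPM, the median gene had 419.8 CPM, and 73 of the 79 were at 100 CPM or more. The 10 genes highest in CPM took 25.5% of the CPM of all 79. Per kb of annotated exon, levels ran from 5.62 to 1319 CPM per kb with a median of 214. The medians of the large (203) and small (230) subunit genes were close. Exon bases were joined over all annotated transcripts of a gene and can exceed the length of its mRNA. The values per kb therefore do not rank the genes by mRNA level. Rplp1 (1319 CPM per kb), Rps3a1 (732) and Rps15 (676) were highest, and Rpl13a (5.62), Rpl22l1 (16.4) and Rpl30 (27.4) lowest. Exons covered 383 to 6270 bases per gene (median 1781), and the 79 genes lay on 19 chromosomes.

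Uniquely mapped reads were counted, and this bears on a gene family with many near-copies. An annotated gene at least 98% identical over at least 150 bases existed for 67 of the 79, up to 24 of them for Rps2 and Rpl7a, and 13 genes had over 10% of their exon bases shared with an overlapping gene, so that levels of these genes are uncertain. Only 10 genes had neither. The 302 genes whose symbols mark them as ribosomal protein pseudogenes or similar (with a -ps suffix) took 0.0159% of counts in RC/+ and 0.0215% in RC/-.

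The 10 matched genes under the limit were all rare or shared their sequence. Rps12l1 and Rpl10l had no counts at all, and Rpl39l, Rpl32l, Rpl24, Rps3a3, Rpl3l, Rpl6l, Rps3a2 and Rps10 followed. Just below the limit stood Rps10 (4.72 CPM) and Rps3a2 (2.59 CPM), and just above it Rpl13a (11.9 CPM) and Rpl22l1 (32.6 CPM). Rps10 and Rpl24 encode core ribosomal proteins, and in this annotation each overlaps a second gene model (RPS10-NUDT3 and Gm28037).

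Libraries held 20.4 to 30.8 M counts, and no pair within a group was a copy of another. The kidney identity of the samples was clear from proximal tubule markers, all 17 of which were at 1 CPM or more on average. The 5 RC/- libraries held 6648 to 12106 CPM summed over these markers, and the other 19 libraries 18120 to 29480 CPM. All 13 macrophage markers and 6 of 8 fibroblast markers were higher in RC/- than in RC/+, and all 17 proximal tubule and 7 of 9 thick ascending limb and distal tubule markers were lower. Of 11 collecting duct markers 6 were higher and 3 lower, and their summed level was 2579.8 to 4873 CPM in RC/- against 1383 to 1664 CPM in RC/+. The summed macrophage level was 707 to 1298 CPM in RC/- against 320 to 643 CPM elsewhere, and the summed fibroblast level 3361 to 5563 CPM and 938 to 2979 CPM. Myc, a known activator of ribosomal protein genes, was at 29.8 to 46.9 CPM in RC/- and 8.07 to 22.2 CPM elsewhere. Libraries 20 to 27, which are 3 of the RC/- D18 and all of the RC/- D53 mice, shared skeletal muscle transcripts at 154 to 204 CPM summed over 8 markers, against 6.94 to 10.99 CPM in the others. The labels name no batch for them.

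The first question was whether cystic and control kidneys differ in the share of counts that these genes take. The large subunit genes took 1.86%, 1.80% and 1.78% of counts in RC/+ (replicates 4 to 6) and 2.14%, 2.15%, 2.43%, 2.75% and 2.67% in RC/- (replicates 13 to 17). The small subunit genes took 1.35%, 1.27% and 1.27% in RC/+ and 1.54%, 1.54%, 1.75%, 2.03% and 1.93% in RC/-. For either subunit every RC/- library lay above every library of the other groups except the highest RC/- D53 library. In whole kidneys a higher level per cell and more cells of a type with a high level cannot be told apart.

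In the edited cystic kidneys the shares were lower. In RC/- D18 (replicates 18 to 22) the large subunit took 1.80%, 1.73%, 1.64%, 1.54% and 1.53% and the small subunit 1.29%, 1.24%, 1.18%, 1.08% and 1.08%. In RC/- D53 (replicates 23 to 27) the values were 1.78%, 1.67%, 1.89%, 1.82% and 2.32% for the large and 1.27%, 1.17%, 1.36%, 1.32% and 1.70% for the small subunit. Replicate 27 stood apart, above RC/- replicates 13 and 14.

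The control lines lay close together, at 1.65% to 1.82% for the large subunit in RC/+ D18 and 1.77% to 1.85% in RC/+ D53. The 79 genes together took 3.11% ± 0.0889 (RC/+), 2.96% ± 0.141 (RC/+ D18) and 3.10% ± 0.0693 (RC/+ D53) of counts in the control groups (means ± SD of 3 libraries). With 5 libraries each, the mean was 4.18% ± 0.505 for RC/-, 2.82% ± 0.216 for RC/- D18 and 3.26% ± 0.447 for RC/- D53 (SD). The large subunit share was 1.34 times and the small subunit share 1.35 times as high in RC/- as in RC/+.

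**Figure D1:**
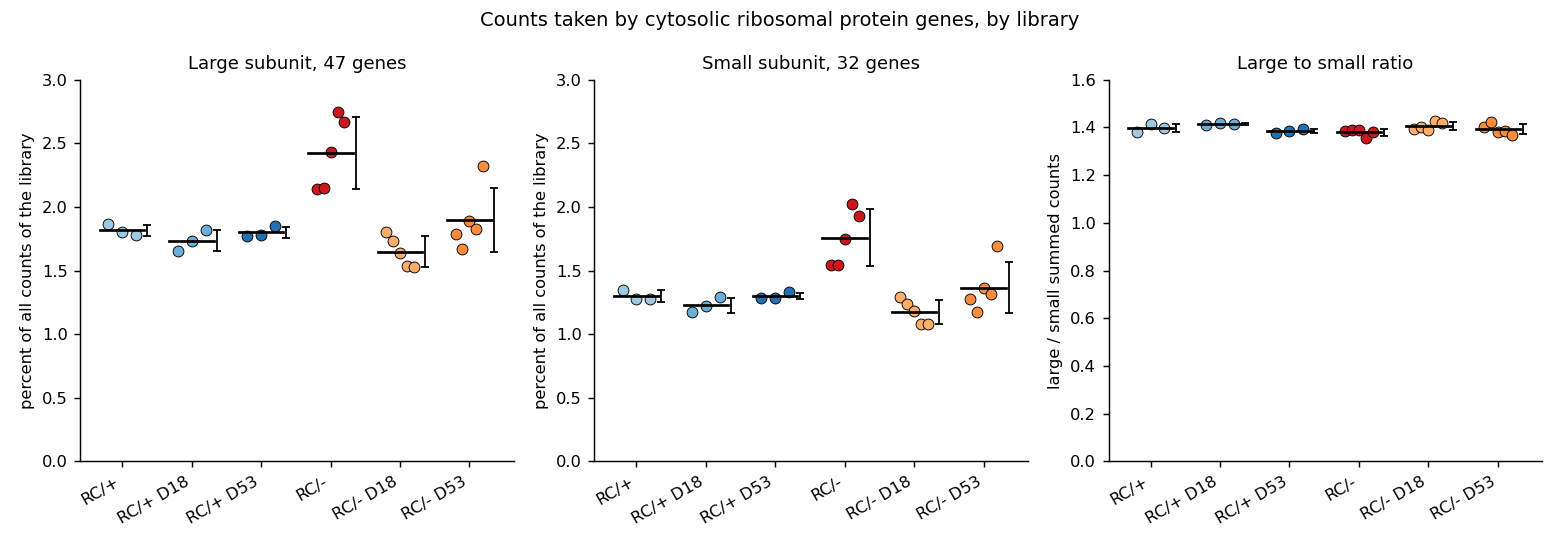
Percent of each library's counts taken by the 47 large and the 32 small subunit genes, and the ratio of both sums, with 1 point per library, the group mean as a line and the SD as a bar. RC/- libraries sit at 2.14% to 2.75% for the large subunit, and the ratio stays between 1.36 and 1.43 in all 24 libraries.

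Both subunits moved together. The mean ratio of large to small subunit counts in the controls was 1.40 ± 0.0165 (RC/+), 1.41 ± 0.00442 (RC/+ D18) and 1.39 ± 0.00872 (RC/+ D53, SD, n = 3 each). For the cystic groups it was 1.38 ± 0.0141 (RC/-), 1.41 ± 0.0164 (RC/- D18) and 1.39 ± 0.0212 (RC/- D53, SD, n = 5 each). All 24 libraries lay between 1.36 and 1.43, and the ratio was given no test. The value of the ratio depends on which genes are counted and does not measure particles.

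Gene by gene, 76 of the 79 were higher in RC/- than in RC/+ and 0 lower (limma-trend, adjusted p below 0.05). Of all 22570 genes tested 25.5% were higher and 12.2% lower. The 46 of 47 large subunit genes that rose and the 30 of 32 small subunit genes that rose had like sizes, and the median log2 fold change was 0.43 over all large and 0.46 over all small subunit genes. Over all 79 it was 0.45, with a range of 0.08 to 0.67, beside a median of 0.14 over all genes tested and 0.13 over the 10596 other genes at 10 CPM or more, of which 35.8% were higher. For 76 genes every RC/- library was above every RC/+ library, which held for 26% of all genes. The exceptions there were Rpl7l1, Rps2 and Rps3. The part of the changed cell type markers in this difference was not tested.

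Rpl39, a small protein that lines the exit tunnel of the large subunit, showed the largest difference. Its level was 172, 153 and 157 CPM in RC/+ and 225, 219, 256, 306 and 281 CPM in RC/-. The groups did not overlap, and the log2 fold change was 0.67 ± 0.13 (SE, adjusted p = 0.000277).

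Rps12 of the small subunit rose by nearly as much. It was at 391, 366 and 367 CPM in RC/+ and at 520.3, 522, 581, 715 and 629 CPM in RC/-, with log2 fold change 0.65 ± 0.13 (SE). Rpl12, which sits at the base of the stalk, was at 384, 377 and 364 CPM in RC/+ and at 524, 481, 572, 691 and 634 CPM in RC/-, with log2 fold change 0.62 ± 0.12 (SE). Rpsa, a small subunit protein also known as the laminin receptor, was at 684, 657 and 687 CPM in RC/+ and at 891, 880.1, 1058, 1191 and 1121 CPM in RC/-. The difference of 0.59 ± 0.10 (log2, SE) had the lowest adjusted p of the 79 (5.19e-05, limma-trend). In each of these genes the groups were apart and RC/- replicates 16 and 17 were the highest. These replicates also had the lowest proximal tubule sums of RC/- (6648 and 6916 CPM) and the highest macrophage sums (1298 and 1060 CPM). Their collecting duct sums did not go together, at 4445 CPM and 2579.8 CPM. Whether the levels and the markers are connected was not tested.

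Rpl13a (0.63), Rps20 (0.61) and Rps4l (0.59) completed the 6 largest log2 fold changes among genes that passed, with Rpl39, Rps12 and Rpl12. Among the smallest that passed were those of Rpl7a (0.26), Rpl5 (0.27), Rps3 (0.28), Rpl3 (0.28) and Rpl8 (0.30). Rpl3 and Rpl8 lie near the peptidyl transferase centre, where peptide bonds form. Some of these calls were close to the threshold: Rpl5 was lost without RC/+ replicate 5 or 6, Rpl7a without RC/+ replicate 6, and Rps3 without RC/+ replicate 5 or 6 or RC/- replicate 16 or 17.

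The stalk proteins rose together, with log2 fold changes of 0.45 for Rplp0, 0.51 for Rplp1 and 0.45 for Rplp2. Rplp0 was at 1071, 1024 and 1011 CPM in RC/+ and at 1239, 1262, 1446, 1563 and 1607 CPM in RC/-. Rpl5 and Rpl11, which carry 5S ribosomal RNA and can bind Mdm2, rose by 0.27 and 0.35. Rps27a, made as a fusion with ubiquitin, rose by 0.43.

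Rps6, whose protein is phosphorylated by the S6 kinases under mTORC1, was at 448, 419 and 419 CPM in RC/+. It was at 532, 535, 606, 711 and 674 CPM in RC/-, all above RC/+, with log2 fold change 0.50 ± 0.09 (SE, adjusted p = 0.000129).

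Of the 79, 3 genes did not pass. Rpl7l1, a paralog of Rpl7 known from early ribosome assembly, was at 121, 117 and 114 CPM in RC/+ and at 121, 116, 129, 127 and 126 CPM in RC/- (log2 fold change 0.08, adjusted p = 0.317). Rps2, at the mRNA entry channel, was at 1032, 1006 and 1035 CPM in RC/+ and at 1014, 1035, 1183, 1346 and 1277 CPM in RC/- (0.18, adjusted p = 0.0762). Rps27l, a paralog of Rps27 known as a p53 target, was at 116, 113 and 104 CPM in RC/+ and at 119, 118, 143, 146 and 124 CPM in RC/- (0.22, adjusted p = 0.0795). The RC/+ and RC/- ranges overlapped for Rpl7l1 and Rps2 and were narrowly apart for Rps27l.

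**Figure D2:**
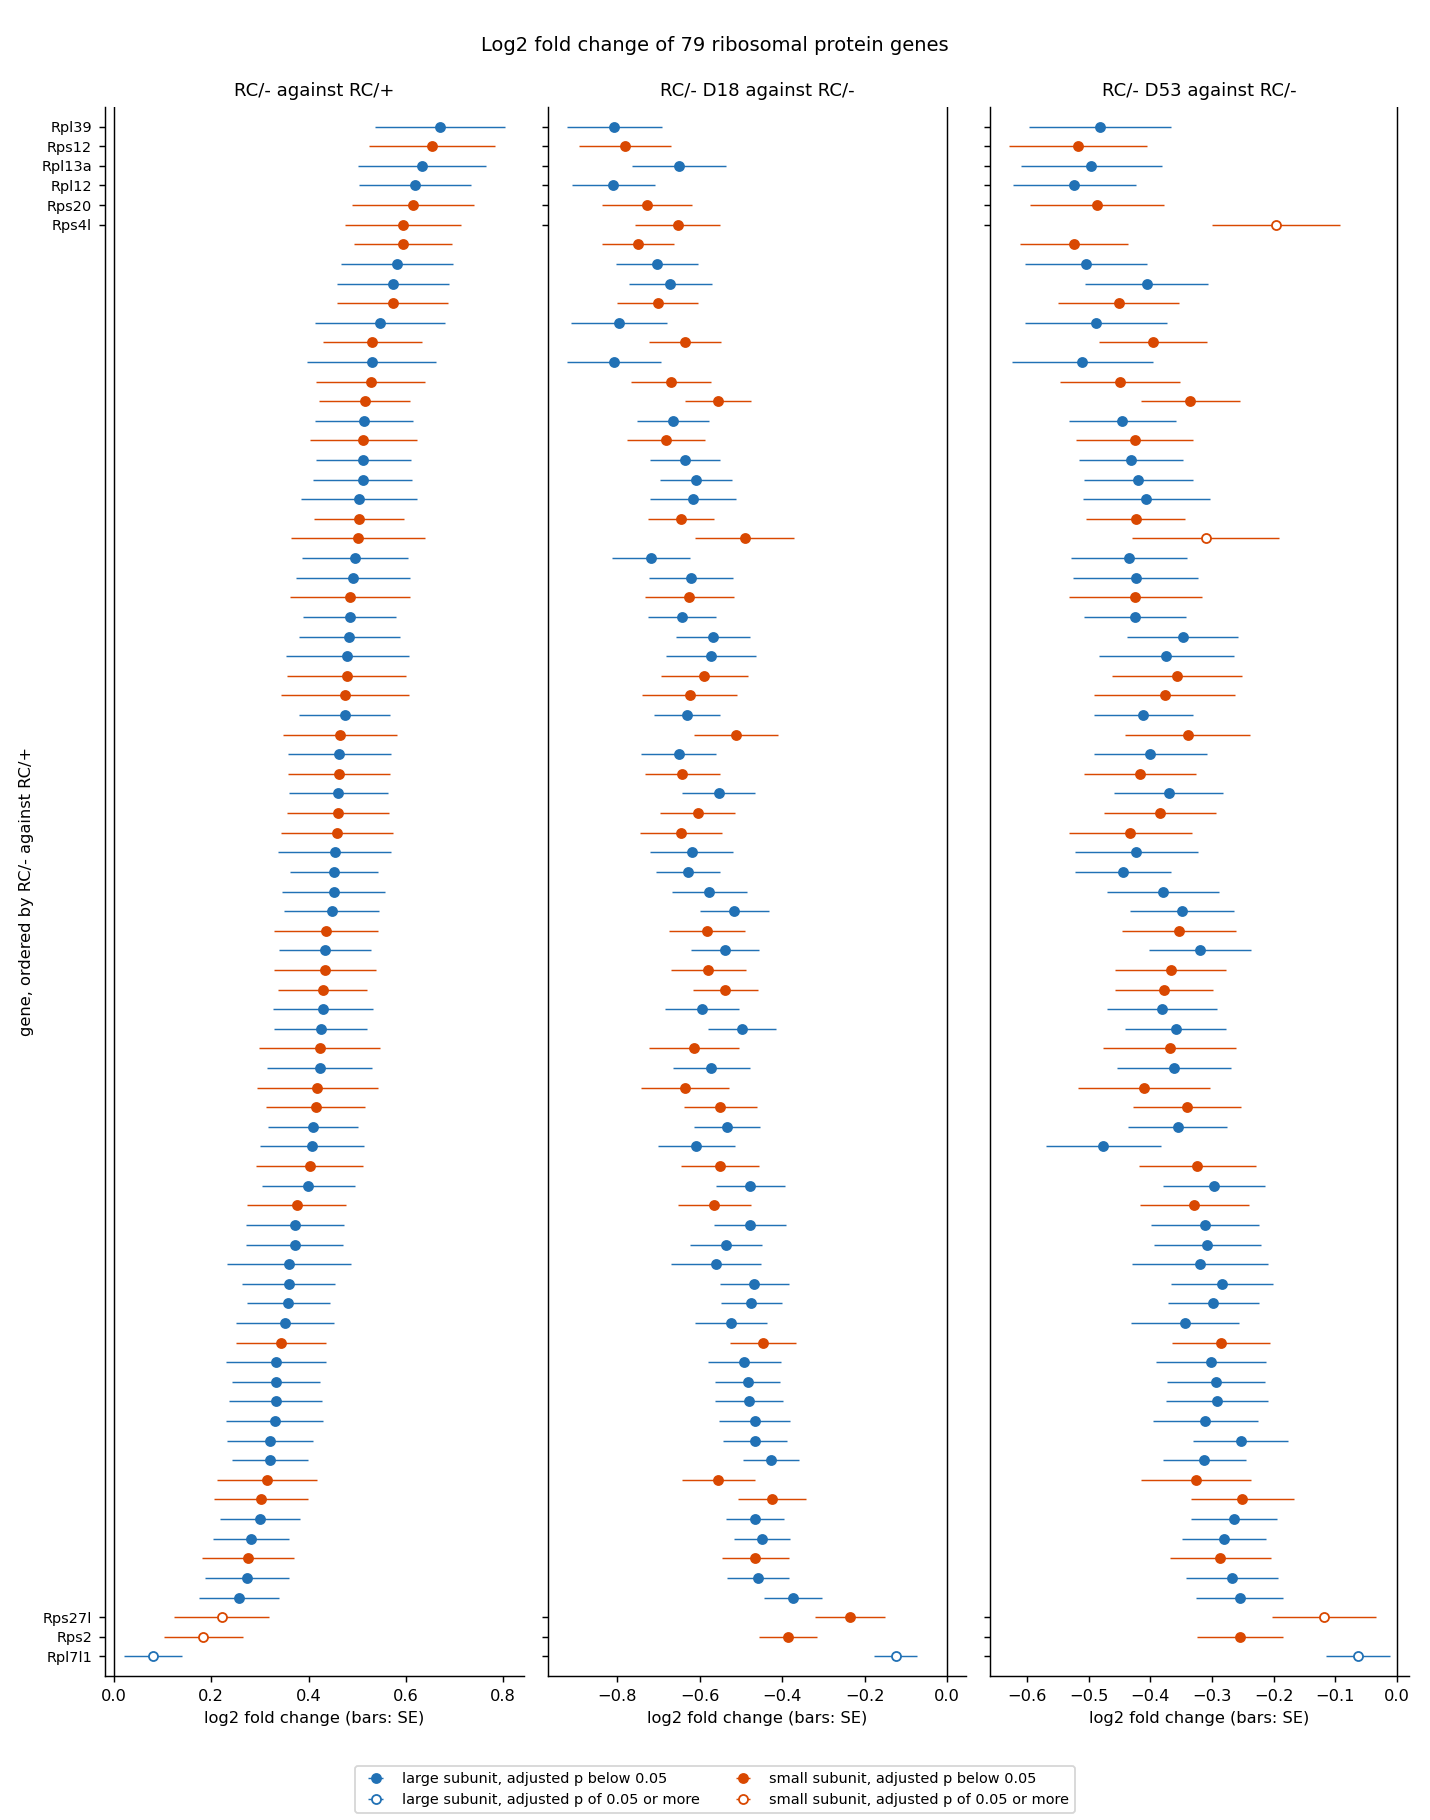
Log2 fold change with its standard error for each of the 79 genes in 3 comparisons, in the order of RC/- against RC/+, with filled points for an adjusted p below 0.05 and names at the 6 largest differences that passed and the 3 genes that did not pass. The 76, 78 and 75 filled points lie to the right of 0 in the first comparison and to the left of 0 in the other comparisons, which share the RC/- libraries.

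Scaling of the libraries changed the size of this difference. With TMM factors, 53 of the 79 genes passed, all higher, with a median log2 fold change of 0.31 beside a median of 0.01 over all genes. The split of all genes that passed was 3862 higher and 3886 lower in place of 5753 and 2744. On that scale the mean large subunit share was 1.87% in RC/+ and 2.27% in RC/-, in place of 1.81% and 2.42%. The mean small subunit share was 1.34% and 1.65%, in place of 1.30% and 1.76%. Among the 10 genes with neither a near-identical copy nor an overlap, 8 rose with a median of 0.37 over the 10.

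Differences in size among the 79 genes followed none of the measured properties closely. Across genes, which are not independent replicates and share the same libraries, Spearman's rho of the log2 fold change was -0.34 with mean CPM, -0.24 with CPM per kb, -0.13 with exon length and -0.13 with the number of near-identical genes (n = 79). Among other genes at 10 CPM or more the median log2 fold change was -0.17 for the 83 of up to 750 exon bases, 0.09 for the 473 of 750 to 1500 bases and 0.10 for the 2058 of 1500 to 3000 bases. The median was 0.45 for the 49 genes with a pyrimidine run of at least 8 bases, 47 of which rose, and 0.45 for the 9 with a shorter run in the window (Rpsa with its cut run among them), 8 of which rose. Runs were counted wherever they lay in the window, and whether they start the mRNA was not tested.

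To see which genes moved more or less than the rest of the ribosomal protein genes, counts were scaled to the summed counts of the 79 in place of the library total. On that scale 4 genes were still higher in RC/- than in RC/+ and 2 lower, against 7.59% and 28.1% of all genes. Neither count of the 79 exceeded these shares. By construction the scale makes the sum of the 79 genes equal in all libraries and shifts the other genes. The shares over all genes reflect that shift and do not say what chance would give. Higher were Rpl39 (0.25), Rps12 (0.24), Rpl12 (0.20) and Rps20 (0.20), and lower were Rpl7l1 (-0.34) and Rps2 (-0.23). The remaining 73 did not pass. When 1 library was left out at a time, 0 to 6 genes passed, with 0 without RC/+ replicate 5 or replicate 6, 1 without RC/+ replicate 4 or RC/- replicate 16 and 3 without RC/- replicate 17.

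The next question was how the genes behaved when the miR-17 motif was deleted from the RC allele in cystic mice. Against RC/-, 78 of the 79 genes were lower in RC/- D18 and 0 higher, with 26.9% of all genes lower and 14.3% higher. All 32 small and 46 of the 47 large subunit genes fell. The median log2 fold change was -0.58, with a range of -0.81 to -0.13, beside -0.10 over all genes tested. With TMM factors 77 were lower, with a median of -0.46, and the split of all genes that passed was 4414 higher and 4435 lower in place of 3238 and 6067. In 77 genes every RC/- D18 library was below every RC/- library, against 18.8% of all genes, the exceptions being Rpl7l1 and Rps15a.

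Rpl12 fell by 0.81 ± 0.10 on the log2 scale (SE, adjusted p = 6.00e-07). Its levels in RC/- D18 were 378, 361, 335, 295 and 284 CPM, so that the highest was below the lowest RC/- library at 481 CPM. Of the 5 RC/- D18 levels, 1 lay within the RC/+ range of 364 to 384 CPM and 4 below it.

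Rpl35, near the exit tunnel, was at 114, 111, 134, 149 and 142 CPM in RC/- and at 83.5, 82.4, 70.6, 66.9 and 66.4 CPM in RC/- D18. The log2 fold change was -0.81 ± 0.11 (SE). Rpl39 was at 156, 173, 149, 132 and 126 CPM in RC/- D18, with log2 fold change -0.81 ± 0.11 (SE). In both genes the 3 libraries with skeletal muscle transcripts (20 to 22) were lower than libraries 18 and 19.

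Rpl41 (-0.80), one of the shortest proteins known, Rps12 (-0.78) and Rpsa (-0.75) were next in size. Rpsa was at 668, 661, 612, 559 and 545 CPM in RC/- D18, all below the RC/- libraries. Among the smallest falls that passed were those of Rps27l (-0.23), Rpl7a (-0.37), Rps2 (-0.39), Rpl4 (-0.43) and Rps25 (-0.45). The call for Rps27l was lost without RC/- replicate 15 or 16 or RC/- D18 replicate 21 or 22. Rpl7l1, at 109, 109, 124, 117 and 109 CPM in RC/- D18, did not pass (-0.13, adjusted p = 0.0583).

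All 17 proximal tubule markers were higher and all 13 macrophage markers lower in RC/- D18 than in RC/-, and 6 of the 7 skeletal muscle markers tested were higher. Without libraries 20 to 22, 75 of the 79 genes were lower with a median log2 fold change of -0.45. The part of the epithelial, macrophage and fibroblast markers in the difference was not tested.

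Scaled to the summed counts of the 79 genes, 9 genes were lower and 3 higher in RC/- D18 than in RC/-, against 6.17% and 49.1% of all genes. These shares, too, are shifted by the scaling itself. Lower were Rpl12 (-0.25), Rpl35 (-0.25), Rpl39 (-0.24), Rpl41 (-0.23), Rps12 (-0.22), Rpsa (-0.19), Rps20 (-0.17), Rpl32 (-0.16) and Rps26 (-0.14). Higher were Rpl7l1 (0.44), Rps27l (0.33) and Rpl7a (0.19). With libraries 20 to 27 as a covariate 1 gene passed.

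The D53 line gave a smaller difference: against RC/-, 75 of the 79 genes were lower and 0 higher, with 18.9% of all genes lower and 11.3% higher. The median log2 fold change was -0.37, beside -0.08 over all genes tested. Of the large subunit 46 of 47 fell and of the small subunit 29 of 32. In 3 genes alone, Rpl13a, Rpl23a and Rpsa, was every RC/- D53 library below every RC/- library, against 11.8% of all genes. Without replicate 27, 77 genes were lower with a median of -0.45. With TMM factors 59 were lower, with a median of -0.28, and all genes that passed split into 3301 higher and 3021 lower in place of 2543 and 4262.

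Rpsa showed the largest fall, at 673, 615, 697, 735 and 849.9 CPM in RC/- D53 against 880.1 CPM in the lowest RC/- library (log2 fold change -0.52 ± 0.09, SE, adjusted p = 6.54e-05). Rpl12 was at 379.7, 341.1, 402, 393 and 504 CPM, of which replicate 27 alone reached into the RC/- range (-0.52 ± 0.10, SE). Rps12 (-0.52), Rpl35 (-0.51), Rpl37 (-0.50) and Rpl13a (-0.50) followed, and Rpl29, Rps2, Rpl7a, Rpl8 and Rpl5 were among the smallest falls that passed, at -0.25 to -0.27. The call for Rpl29 was lost without RC/- D53 replicate 24.

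The 4 genes that did not pass in RC/- D53 against RC/- were Rpl7l1 (-0.06), Rps27l (-0.12), Rps4l (-0.20) and Rps15a (-0.31). Rps4l was at 34.2, 38.4, 41.9, 38.5 and 47.9 CPM in RC/- D53 and at 44.0, 45.2, 46.2, 43.4 and 50.4 CPM in RC/-. Rpl7l1 was at 125, 115, 125, 118 and 111 CPM in RC/- D53, within the levels of the other groups.

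With libraries 20 to 27 as a covariate none of the 79 passed in RC/- D53 against RC/- (0 genes, median -0.16). Since every RC/- D53 library belongs to that set, the covariate rests on RC/- D18 libraries 18 and 19 against 20 to 22, and the set and the D53 line cannot otherwise be told apart. Proximal tubule markers (17 of 17) and markers of the thick ascending limb and distal tubule (7 of 9) were higher in RC/- D53 than in RC/-, macrophage markers (13 of 13) lower, and skeletal muscle (7 of 7) and erythroid (5 of 5) markers higher.

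Scaled to the summed counts of the 79 genes, Rpl7l1 (0.30) and Rps27l (0.24) were higher and Rpl12 (-0.16) and Rpsa (-0.16) lower in RC/- D53 than in RC/-, against 30.5% and 4.65% of all genes. The scaling itself shifts these shares as well. Without replicate 27, 11 genes passed, and without RC/- replicate 16 or 17, or RC/- D53 replicate 23 or 24, 1 did. It was 2 without RC/- replicate 15 or RC/- D53 replicate 25.

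**Figure D3:**
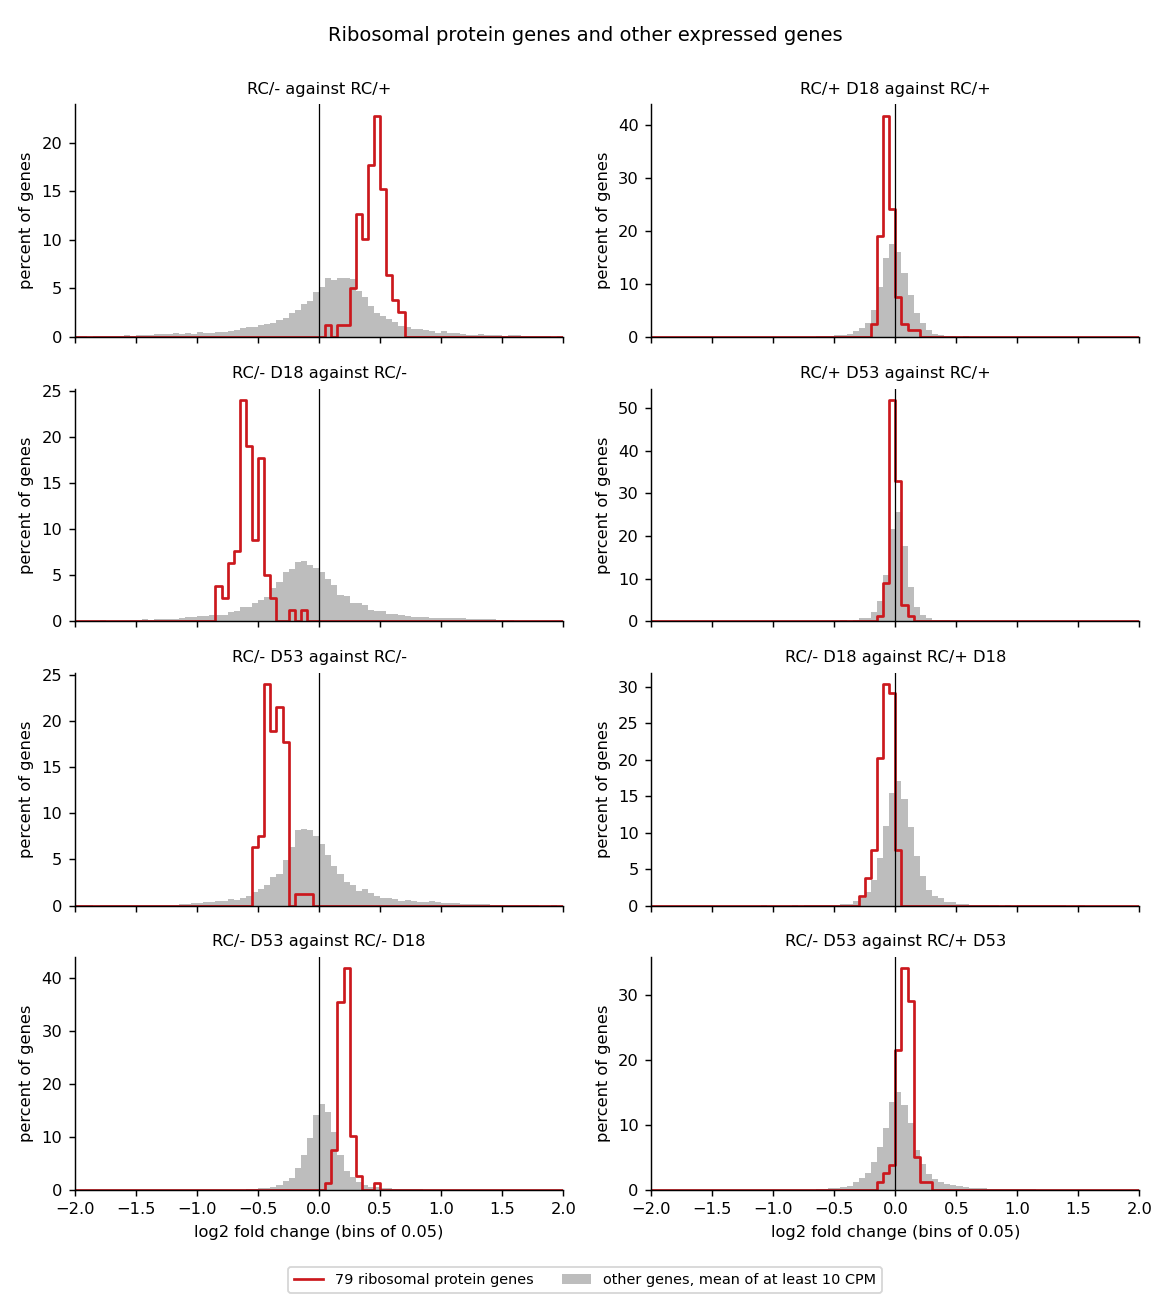
Distribution of log2 fold changes, in bins of 0.05, of the 79 genes (red line) and of other genes at 10 CPM or more (grey bars) in 8 comparisons, as percent of genes. The red line is shifted to higher values than the grey bars in RC/- against RC/+ (medians 0.45 and 0.13), and lies close to 0 in the comparisons of control lines with one another.

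Without the cystic genotype the edit was not accompanied by a detectable difference. In RC/+ D18 against RC/+ 0 of the 79 genes passed by limma-trend (background 0.00443%), 0 had an unadjusted p below 0.05, and DESeq2 and edgeR called 0 as well. The median log2 fold change was -0.06 beside -0.02 over all genes, with 10 of the 79 above 0. In 9 genes (Rpl19, Rpl4, Rpl6, Rpl9, Rplp2, Rps2, Rps3, Rps6 and Rps9) every RC/+ D18 library was below every RC/+ library, against 5.07% of all genes. In RC/+ D53 against RC/+ 0 genes passed (background 0%) and 0 had an unadjusted p below 0.05, also with 0 by DESeq2 and edgeR. The median was -0.01 beside 0.01 over all genes, with 30 of the 79 above 0. Rps28 alone was lower in every library, against 3.89% of all genes.

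Within each edited line, cystic and control kidneys were compared by group means from libraries outside RC/- and RC/+. The spread behind these tests was estimated from all 24 libraries. The RC/- D18 and RC/- D53 libraries had also served in the comparisons with RC/- above. In RC/- D18 against RC/+ D18 0 genes passed by limma-trend (background 0.266%), 0 had an unadjusted p below 0.05 and DESeq2 and edgeR called 0. The median log2 fold change was -0.07, with 6 of 79 genes above 0, and the lowest adjusted p was 0.576. Rpl36 was the 1 gene lower in every RC/- D18 library, against 1.91% of all genes. Without libraries 20 to 22 the median was 0.05, and with 1 library left out it ranged from -0.11 (RC/+ D18 replicate 7) to -0.04 (RC/+ D18 replicate 9). In RC/- D53 against RC/+ D53 0 genes passed by limma-trend (background 2.6%), 2 had an unadjusted p below 0.05 (Rps4l, 0.29, and Rps24, 0.21) and DESeq2 and edgeR called 0. The median was 0.08, with 73 of 79 above 0, and 0.29 with libraries 20 to 27 as a covariate. It ranged from -0.004 without RC/- D53 replicate 27 to 0.13 without replicate 24.

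The difference between these cystic effects was itself tested as an interaction. For D18, 70 of the 79 genes had a lower cystic effect in the edited than in the unedited line, and 0 a higher one, with 10.8% of all genes lower and 6.31% higher. The median interaction was -0.51 on the log2 scale, beside -0.09 over all genes. Rpl35 (-0.77 ± 0.19), Rpl41 (-0.75 ± 0.19), Rpl39 (-0.72 ± 0.19) and Rpl38 (-0.71) had the largest values (SE). The count fell to 36 without RC/+ D18 replicate 9 and to 44 without RC/+ replicate 6, and to 4 without libraries 20 to 22 of RC/- D18, which leaves 2 libraries in that group and ends the calls for these 4 genes. With TMM factors 36 passed, and all genes that passed split into 1874 higher and 1781 lower in place of 1424 and 2434.

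For D53, 9 genes had a lower cystic effect in the edited line, and 0 a higher one, with 6.55% of all genes lower and 4.73% higher, and the median interaction was -0.35. These were Rpsa (-0.56), Rpl12 (-0.52), Rplp0 (-0.51), Rpl23a (-0.51), Rplp1, Rpl10a, Rpl18, Rpl13 and Rps6, the last 5 at -0.42 to -0.46. The count depended on single libraries: it was 58 without RC/- D53 replicate 27, 23 without RC/- replicate 13 and 20 without RC/- replicate 14, 6 without RC/- D53 replicate 25, and between 2 and 4 without RC/- replicate 15, 16 or 17, RC/- D53 replicate 23, 24 or 26 or any 1 control library. With TMM factors 2 passed, and all genes that passed split into 1429 higher and 1015 lower in place of 1067 and 1478. Of the 79 genes 61 had an unadjusted p below 0.05.

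RC/- D53 and RC/- D18 were set directly against each other, and 0 genes passed by limma-trend (background 0.266%). All 79 log2 fold changes were above 0, with a median of 0.21 beside 0.03 over all genes, and 58 had an unadjusted p below 0.05. DESeq2 called 1 gene and edgeR 0. Rps4l was closest, with 27.3, 30.4, 32.1, 31.5 and 24.8 CPM in RC/- D18 and non-overlapping higher levels in RC/- D53 (0.46, adjusted p = 0.0592). It was the 1 gene of the 79 that was separated, against 1.94% of all genes. Within the libraries with muscle transcripts, that is without libraries 18 and 19, 0 genes passed and the median was 0.29, while without RC/- D53 replicate 27 it was 0.12.

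Some ribosomal protein genes have paralogs, and the proteins of some of these can take their place. Here the paralogs were compared with their main copies as the count of the paralog in percent of that of the main copy. These ratios are given as a description of mRNA counts, and whether one protein took the place of another was not tested. Rps27l stood at 50.5% ± 1.09 of Rps27 in RC/+ (SD, n = 3) and at 42.5% ± 4.97 in RC/- (SD, n = 5). The edited cystic lines had 54.0% ± 1.39 (D18) and 49.98% ± 3.54 (D53). The RC/- libraries, at 35.3% to 48.8%, were all below the RC/+ libraries, at 49.4% to 51.6%, and below the RC/- D18 libraries, while the RC/- D53 libraries, at 45.7% to 54.1%, overlapped them.

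Rpl7l1 stood at 19.7% ± 0.167 of Rpl7 in RC/+ (SD, n = 3) and at 15.3% ± 1.57 in RC/- (SD, n = 5). With the edit it was 20.1% ± 2.26 (RC/- D18) or 18.8% ± 2.58 (RC/- D53). Again every RC/- library, at 13.5% to 17.2%, was below every RC/+ and RC/- D18 library, and the RC/- D53 libraries, at 14.4% to 21.04%, overlapped them. Within RC/- D18, libraries 18 and 19 were at 18.0% and 17.3%, close to the highest RC/- library and below all RC/+ libraries. Libraries 20 to 22, those with skeletal muscle transcripts, were at 22.1%, 21.8% and 21.3%. Rpl7 itself had a mean of 595 CPM in RC/+ against 817 CPM in RC/-, and Rps27 of 219.8 against 308 CPM.

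The other pairs did not follow this pattern. Group means of Rpl22l1 were 12.2% to 13.7% of Rpl22, and those of Rps4l were 4.50% to 5.64% of Rps4x, with overlapping ranges in RC/+ and RC/-. Rpl36al was at 0.192% to 0.505% of Rpl36a. Rpl3l, a muscle paralog of Rpl3 and below the limit of 10 CPM, had a mean of 0.864 CPM in RC/+ against 0.443 CPM in RC/- (log2 fold change -0.89, adjusted p = 0.0456), a call lost without RC/+ replicate 4, 5 or 6 or RC/- replicate 13, 16 or 17. Its mean in the edited cystic groups, which hold the libraries with muscle transcripts, was 1.09 CPM (D18) or 1.15 CPM (D53), and RC/+ D18 without such libraries had 1.15 CPM.

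**Figure D4:**
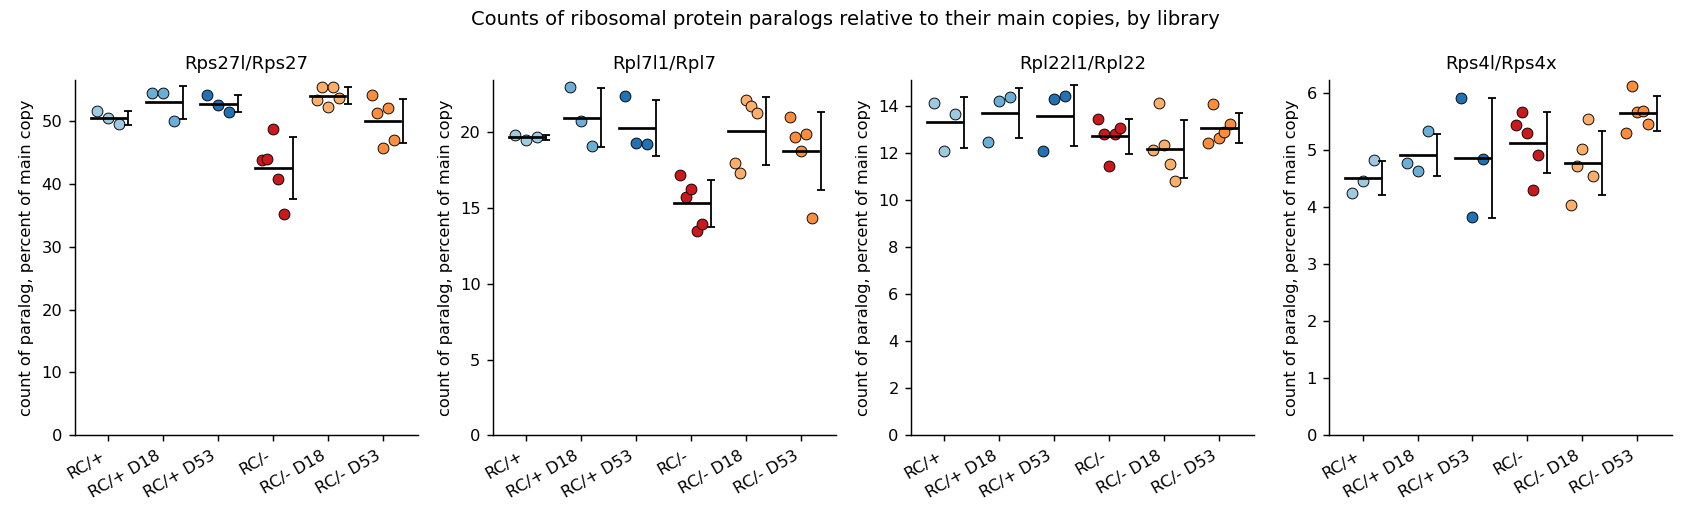
Counts of 4 ribosomal protein paralogs in percent of their main copies, with 1 point per library, the group mean as a line and the SD as a bar. The RC/- mean is the lowest for Rps27l (42.5% of Rps27) and Rpl7l1 (15.3% of Rpl7), where RC/- libraries overlap those of RC/- D53, and the groups overlap for Rpl22l1 and Rps4l.

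Genes around the ribosome were then read from lists, chosen with results on these data known. Their counts stand beside those over all genes, of which 25.5% were higher and 12.2% lower in RC/- against RC/+, 26.9% lower and 14.3% higher in RC/- D18 against RC/-, and 18.9% lower and 11.3% higher in RC/- D53 against RC/-. With TMM factors 3862 of all 22570 genes were higher and 3886 lower in RC/- against RC/+. No list was tested against other genes. Of 5 cytosolic ribosome genes that the symbol rule missed, Fau (0.40) and Rack1 (0.46) rose in RC/- against RC/+, while Rps27rt (0.37) and Rpl36al (0.54) did not pass. Fau carries a ubiquitin-like sequence fused to a small subunit protein and Rack1 sits on the small subunit. Against RC/-, 4 of the 5 fell in RC/- D18 and 3 in RC/- D53. Of 14 paralogs and main copies, most of them among the 79, 10 rose and 1 fell in RC/- against RC/+, with a median of 0.42, while 11 fell and 1 rose in RC/- D18 and 9 fell and 1 rose in RC/- D53 against RC/-.

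The next lists held genes that make ribosomal RNA and assemble subunits. Of 12 genes of RNA polymerase I and its factors 9 rose in RC/- against RC/+ and 0 fell, with a median log2 fold change of 0.25 beside 0.14 over all genes. Taf1c (0.45), of the promoter selectivity factor, Ttf1 (0.36), the termination factor, and Polr1a (0.35), the largest subunit, were the largest. With TMM factors 3 rose, and without RC/+ replicate 4, 5 did. Against RC/-, 7 fell in RC/- D18 and 5 in RC/- D53.

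Of 40 ribosome assembly genes 25 rose and 0 fell, with a median of 0.28, led by Noc4l (0.65), Nop58 (0.63), a core protein of box C/D snoRNPs, and Nhp2 (0.58), of box H/ACA snoRNPs. With TMM factors 13 rose and 3 fell, and without RC/+ replicate 4, 1 fell. Against RC/-, 27 fell and 1 rose in RC/- D18, and 18 fell and 0 rose in RC/- D53.

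Of 18 further genes whose mRNAs are known to start with the same pyrimidine tract, 12 rose and 0 fell in RC/- against RC/+, with a median of 0.30. The largest were Vim (1.21), an intermediate filament protein of mesenchymal cells, Hnrnpa1 (0.75), a splicing factor, and Eef1b2 (0.50), a nucleotide exchange factor of elongation. Neither Vim nor Hnrnpa1 is a translation factor. With TMM factors 5 rose. Against RC/-, 15 fell in RC/- D18 and 14 in RC/- D53, with 0 higher in either.

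Of 17 genes of the mTORC1 list 5 were higher, 1 was lower and 11 did not pass in RC/- against RC/+, with a median of 0.07, and the count of higher genes was near the 25.5% of all genes. Rps6ka1 (1.06), a kinase that phosphorylates Rps6, Eif4ebp1 (0.93), a repressor of cap-dependent initiation, and Pdcd4 (0.56), an inhibitor of eIF4A, rose, and Larp4 (-0.26), which binds poly(A) tails, fell. With TMM factors 3 rose and 3 fell, and the fall of Larp4 was lost without RC/+ replicate 5. The edited lines against RC/- had 3 higher and 3 lower in RC/- D18, and 1 higher and 4 lower in RC/- D53. These are mRNA levels and not kinase activities.

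Of 11 genes of nucleolar stress and p53, 6 rose and 0 fell in RC/- against RC/+, with a median of 0.60. Bbc3 (1.55), which encodes the death protein Puma, went from 8.67 to 25.9 CPM, and Phlda3 (1.30), an inhibitor of Akt signalling, rose as well. Cdkn2a, which encodes p16 and Arf, passed the test from 0.0147 CPM in RC/+, where it was near 0 counts, to 1.63 CPM in RC/-. Against RC/-, 7 of the 11 were lower in RC/- D18 and 7 in RC/- D53.

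**Figure D5:**
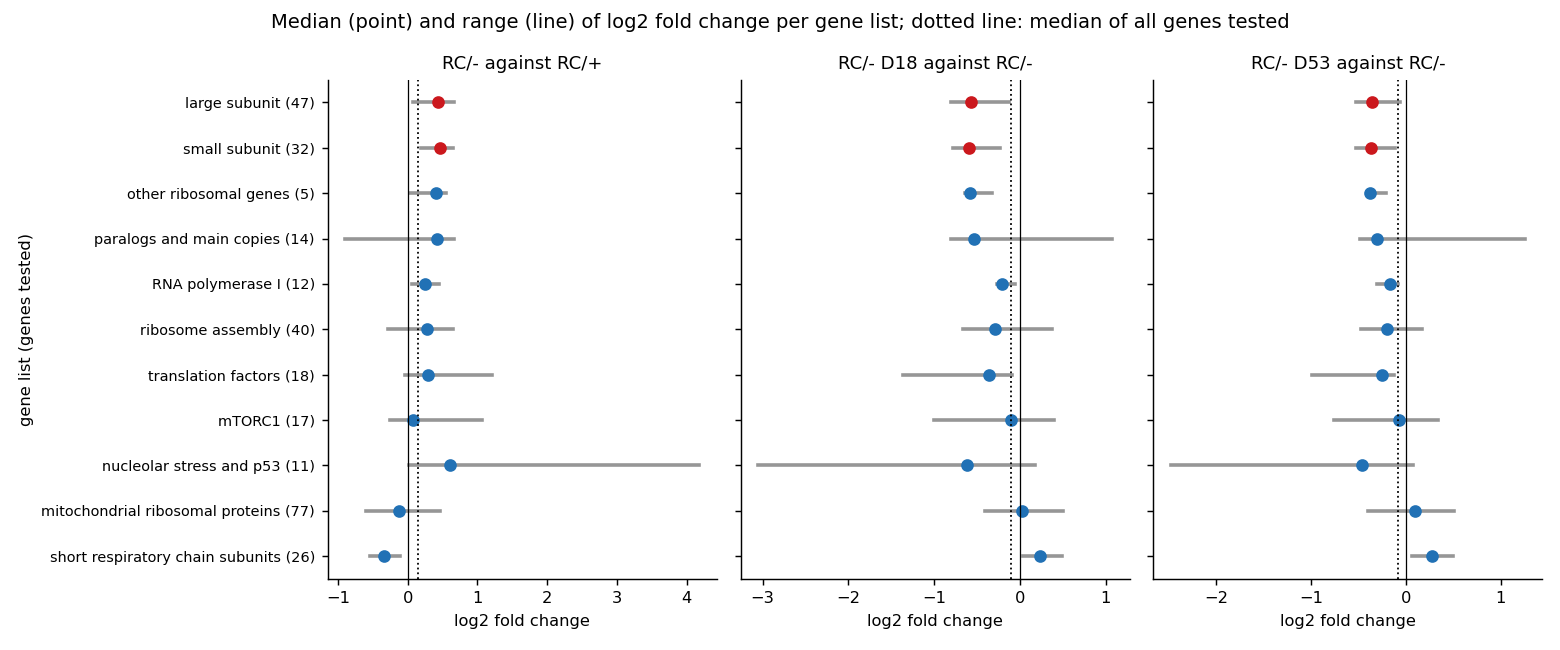
Median (point) and range (line) of the log2 fold change of each gene list in 3 comparisons, with the number of genes tested in brackets and the median of all genes tested as a dotted line. The large and small subunit genes (red) have medians of 0.43 and 0.46 in RC/- against RC/+, and the medians of the mitochondrial lists lie below 0 there.

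Mitochondria have their own ribosome, whose protein genes were read in the same way. Of 77 mitochondrial ribosomal protein genes 3 rose (Mrpl33, 0.47, Mrpl52, 0.41, and Mrpl54, 0.29) and 19 fell in RC/- against RC/+, among them Mrpl50 (-0.59), Mrpl12 (-0.58) and Mrps35 (-0.42). The median was -0.12, and with TMM factors 1 rose and 42 fell. Against RC/-, 9 were higher and 10 lower in RC/- D18, a balance that turned to 33 higher and 2 lower with TMM factors. In RC/- D53 18 were higher and 3 lower, and 37 and 1 with TMM factors.

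Short subunits of the respiratory chain were read as further short and abundant mRNAs. Of 26 genes 0 rose and 19 fell in RC/- against RC/+, with a median of -0.34, led by Cox7b (-0.54), Ndufc1 (-0.49) and Ndufb4 (-0.47). Compared with RC/-, 19 were higher in RC/- D18 and 20 in RC/- D53, with 0 lower. Mitochondrially encoded genes took 3.16% to 4.05% of counts in the RC/- libraries but 4.88% to 6.78% elsewhere, beside the lower proximal tubule markers given above.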

How the data were processed

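The authors trimmed reads with Trim Galore 0.6.3, aligned them to GRCm38 with STAR 2.5.3a and deposited its raw read counts per gene, with no normalization (54532 genes, 24 libraries). The strand setting is not given in the sources used here. The share of 343 rows without a symbol was at most 0.0261%. The number of unused columns of per-sample values was 0.

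Counts were divided by library totals (20.4 to 30.8 M) to give log2 CPM with a prior count of 2, and 22570 genes with a mean of at least -3 were tested by limma-trend (limma 3.58.1, edgeR 4.0.16, R 4.3.3) in 1 model in which each of the 6 groups had its own mean. Tests were two-sided, with Benjamini-Hochberg adjustment over all genes and a threshold of 0.05. The study's methods name limma-trend and the expression limit and not the model. DESeq2 1.42.0 and edgeR quasi-likelihood tests, other scalings, filters, covariates and leaving out libraries were alternatives. The sex used as a covariate was assigned from the Xist and Ddx3y counts of each library. Figures were drawn with matplotlib 3.10.9. Exons came from GENCODE on GRCm38 and start sequences from RefSeq GRCm38.p6.

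The members and gene lists were chosen with earlier results of these data known. Named with values are the 6 largest and 6 smallest changes past the threshold in each main comparison, up to 4 per direction in the others, paralogs, stalk and 5S proteins, Rps6, Rpsa and Rps27a, genes next to the CPM limit, extremes of CPM per kb, and up to 3 per direction of each list. Rps24, the genes that did not pass, separated genes and those that stood out after scaling to the 79 genes were named after their values were seen. Some single genes that these rules would name are not reported here.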

Additional observations from a re-analysis of the deposited data

Results flagged for a closer look

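In groups of 5 libraries the named genes, the summed shares and their ratio were searched for a library far from the others. Chance exceeds the limit used in about 1 in 20 groups, and 7 of 123 groups had such a library, which is close to that rate. The shares and the ratio had none, and genes read from the same library are not separate findings. In 6 of them RC/- D53 replicate 27 was the highest: Rpl22l1 at 39.9 CPM, Rpl30 at 118.5 CPM, Rpl35 at 134.2 CPM (the others at 78.0 to 84.6 CPM), Rpl39 at 258.7 CPM, Rpl41 at 654.2 CPM (the others at 374.8 to 434.3 CPM) and Rps27l at 158.6 CPM. This library also had the highest Lcn2 (57.8 CPM) and Myc (22.2 CPM) of its group. Its Havcr1, at 0.541 CPM, was not the highest and lay within the group's range of 0.357 to 0.896 CPM. Rplp0 was highest in RC/- D18 replicate 18, at 1004 CPM.

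The cystic effect differed between the edited and the unedited line by the interaction test in 70 genes for D18, where Rpl35 (-0.77), Rpl41 (-0.75), Rpl39 (-0.72) and Rpl38 (-0.71) had the largest log2 values, and in 9 genes for D53, where Rpsa (-0.56), Rpl12 (-0.52), Rplp0 (-0.51) and Rpl23a (-0.51) did.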

How the results depend on the processing

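No paired analysis was possible because replicate numbers are not shared between groups. Alternatives without libraries 18 and 19 or 20 to 22 and the scaling to the 79 genes were chosen after seeing the data. No gene past the threshold changed sign when 1 library was left out in the 3 main comparisons. There 67 of 76, 77 of 78 and 71 of 75 calls held each time. The folds of the summed shares stayed within the spread between libraries under every alternative. Those of RC/- over RC/+ were smaller with TMM factors. Depth was ample, since the lowest count of a ribosomal protein gene was 201. The cause of the following changes was not tested.

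With libraries 20 to 27 as a covariate, 0 genes were lower in RC/- D53 than in RC/- in place of 75, and the interactions held 7 genes (D18) and 0 (D53). Between RC/- D53 and RC/- D18, 1 gene passed with DESeq2, a limit of log2 CPM 0 or sex as a covariate, and 0 to 1 with 1 library left out. The D18 interaction counted 36 genes with TMM, 40 with DESeq2 size factors, 34 with edgeR, 4 without libraries 20 to 22 and 36 to 76 with 1 library left out. The D53 interaction counted 2 with TMM, 2 with size factors, 1 with edgeR, 5 with DESeq2, 3 with no filter, 5 with only its own groups and 2 to 58 with 1 library left out. Scaled to the 79 genes, RC/- against RC/+ counted 12 with the limit of 0 and 0 to 6 with 1 library left out, RC/- D18 against RC/- counted 1 with the covariate, and RC/- D53 against RC/- counted 2 with no filter, 2 with sex, 0 with the covariate and 1 to 11 with 1 library left out. The large to small ratio was 0.504 in place of 1.39 without genes that have near-identical copies, which leaves 12 genes.

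Of the lists in RC/- against RC/+, the paralog that was lower (Rpl3l) was lost (0) with no filter, with the limit of 0 and with only its own groups, and 0 to 1 passed with 1 library left out. RNA polymerase I genes higher numbered 3 with TMM, size factors, edgeR and DESeq2, and 5 to 9 with 1 library left out. Assembly genes higher numbered 13, 13, 11 and 13 in that order and lower ones 3, 3, 2 and 2, and 0 to 1 with 1 library left out. Genes with the pyrimidine tract numbered 5, 6, 5 and 6. mTORC1 genes higher numbered 3 in each and lower ones 3, 2, 3 and 2, and 0 to 1 with 1 library left out. Mitochondrial ribosomal genes higher numbered 1 with TMM and edgeR and 5 with the limit of 0, and lower ones 42 in all 4.

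Rpl7l1 changed sign in RC/- against RC/+ (-0.058 with TMM, -0.054 with size factors, -0.057 with edgeR, -0.053 with DESeq2) and in RC/- D53 against RC/- (0.0194, 0.0125, 0.0193 and 0.0125), as did Rpl22l1 in the latter with the covariate (0.0017). Rpl7l1 passed the test in neither comparison.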
